A study of Mus musculus with 6 samples.

Results

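Members of a set of 10 transcription factors of the primitive streak and mesendoderm were followed in *Bdh2*-knockout and WT mouse advanced embryonic stem cells (ASCs). They are the T-box genes *T*, *Eomes* and *Tbx6*, the homeobox genes *Mixl1*, *Gsc*, *Evx1*, *Lhx1* and *Cdx2*, and the basic helix-loop-helix genes *Mesp1* and *Hand1*. Each was found by its symbol, and the 10 are rows of a deposited table of 54715 genes. ASCs are mouse embryonic stem cells held in an advanced pluripotent state, and the labels give their strain as a cross of a 129/sv female with a GOF/GFP male. RNA-Seq was done on 3 libraries of WT ASCs and 3 libraries of ASCs with the genotype *Bdh2*-/-. According to the methods, both genotypes grew in ABCL medium with activin A, BMP4, the GSK3 inhibitor CHIR99021 and leukemia inhibitory factor. The knockout was made by CRISPR/Cas9 as a bi-allelic frameshift deletion near the start codon, and the cells of 1 selected deletion line were used further, so that the line and the genotype cannot be told apart. The labels do not say that the 3 libraries of a genotype came from separate cultures, and the p-values below measure only the spread between these libraries.

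The primitive streak is the site of the gastrulating embryo where epiblast cells leave the epithelium and become mesoderm and definitive endoderm. It is induced by Nodal, BMP and Wnt signals, which switch on *T* and *Eomes* first, and graded activin or Nodal signalling then separates anterior streak, marked by *Gsc* and *Lhx1*, from posterior streak, marked by *Evx1* and *Cdx2*. *Mixl1*, *Mesp1*, *Tbx6* and *Hand1* accompany the passage into mesendoderm, cardiac, paraxial and lateral mesoderm. Several of these genes are not restricted to the streak: *Eomes*, *Cdx2* and *Hand1* are also trophoblast genes, and *Eomes* and *Lhx1* are also used in visceral endoderm.

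In *Bdh2*-knockout ASCs (n = 3 libraries of each genotype) *Eomes* rose 1.84-fold, *Evx1* 1.72-fold and *Lhx1* 3.23-fold. *T* fell to 76.9% and *Hand1* to 60.5% of the WT level in edgeR, and DESeq2 called neither of these 2. *Mixl1*, *Tbx6* and *Cdx2* did not pass the test, and *Gsc* and *Mesp1* were counted too rarely to be tested. The stretches upstream of the gene that led this set in level, *T*, and of the 3 that rose are shown first, because these genes moved in opposite directions. Each line gives the 250 bases before the RefSeq start in GRCm38.p6, 5′ to 3′ on the gene's own strand, with CpG dinucleotides in capitals.
*T* (chr17:8434173-8434422, plus strand): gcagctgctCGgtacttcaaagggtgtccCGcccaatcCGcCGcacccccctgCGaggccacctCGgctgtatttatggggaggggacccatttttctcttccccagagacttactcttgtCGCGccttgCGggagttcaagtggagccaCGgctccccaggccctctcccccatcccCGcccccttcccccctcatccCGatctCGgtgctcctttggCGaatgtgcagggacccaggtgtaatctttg
*Eomes* (chr9:118477939-118478188, plus strand): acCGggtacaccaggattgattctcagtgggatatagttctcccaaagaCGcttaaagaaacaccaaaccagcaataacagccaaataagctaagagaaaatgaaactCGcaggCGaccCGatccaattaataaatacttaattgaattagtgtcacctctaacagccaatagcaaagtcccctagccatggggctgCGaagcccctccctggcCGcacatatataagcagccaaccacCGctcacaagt
*Evx1* (chr6:52313248-52313497, plus strand): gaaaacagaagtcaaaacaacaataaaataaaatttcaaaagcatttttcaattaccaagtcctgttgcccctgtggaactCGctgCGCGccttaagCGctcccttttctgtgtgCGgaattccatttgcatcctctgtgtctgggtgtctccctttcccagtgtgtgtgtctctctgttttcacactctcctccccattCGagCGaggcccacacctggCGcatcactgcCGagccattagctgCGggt
*Lhx1* (chr11:84525535-84525784, minus strand): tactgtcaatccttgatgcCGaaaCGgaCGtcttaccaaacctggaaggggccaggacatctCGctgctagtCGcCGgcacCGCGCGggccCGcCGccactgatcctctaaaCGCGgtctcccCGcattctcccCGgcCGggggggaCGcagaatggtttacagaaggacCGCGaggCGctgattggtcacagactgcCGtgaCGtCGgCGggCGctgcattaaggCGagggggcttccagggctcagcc
These stretches held 14 CpG dinucleotides for *T*, 8 for *Eomes*, 10 for *Evx1* and 26 for *Lhx1*, against a median of 6 and an upper quartile of 16 over 32851 promoters. Of the other members, *Cdx2* had 13, *Gsc* 22, *Tbx6* 6 and *Mesp1* 2. *Mixl1* and *Hand1* had no entry. Among the 3 genes that rose, CpG number thus ran from near the median to above the upper quartile.

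Motifs of factors that act in the streak were looked for on both strands of the 8 stretches. The T-box motif TCACACCT was in 0 of the 8 and in 1.1% of all promoters. The TCF/LEF motif CTTTGAT was in 1, that of *Mesp1*, and in 3.2% of all promoters. The FOXH1 motif AATNNACA, read by the DNA-binding partner of SMAD2 and SMAD3, was in 0 of the 8 and in 10.9% of all promoters. The TATA box TATAAA was in 2, those of *Gsc* and *Tbx6*, and in 12.4% of all promoters. None of the motifs contains another, and a match or its lack describes only these windows.

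The study lists RT-qPCR primers for 4 of the members, and these are printed because they mark the part of each mRNA that such an assay reads. Capitals mark a base that differs from the annotated transcript.
*T* forward: gGacctcggattcacatcgt
*T* reverse: ttctttggcatcaaggaagg
*Evx1* forward: ccagtgaccagatgcgccgatac
*Evx1* reverse: tccttcatgcgccggttct
*Hand1* forward: tcaaaaagacggatggtggt
*Hand1* reverse: gcgccctttaatcctcttct
*Cdx2* forward: cctgcgacaagggcttgtttag
*Cdx2* reverse: tcccgacttcccttcaccatac
On GRCm38 the *T* pair lies in coding exons 3 and 4 of 8, at chr17:8436138-8436157 and chr17:8437018-8437037, and its forward primer carries G2A against transcript T-201, counted from 1 at the primer's 5′ end (the primer's base first). The *Evx1* pair lies in coding exons 2 and 3 of 3, at chr6:52315846-52315868 and chr6:52316543-52316561, and its reverse primer also matches *Evx2*, which was counted at most 1 time in any library. The *Hand1* pair lies in the coding parts of exons 1 and 2 of 2, at chr11:57831271-57831290 and chr11:57829644-57829663. The *Cdx2* pair lies within the 3′ UTR in exon 3, at chr5:147301189-147301210 and chr5:147300969-147300990, and so crosses no exon junction. By RT-qPCR the paper reports significantly lower *T*, *Evx1* and *Cdx2* in knockout than in WT ASCs. In the RNA-Seq counts *T* was lower on average, *Evx1* was higher in all knockout libraries, and *Cdx2* was not called. The reason for the opposite direction of *Evx1* was not tested.

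The libraries held 18927748 to 28333541 counts on genes, and all levels are CPM (counts scaled to a common library total) with library sizes scaled by TMM. On this scale 3 counts corresponded to 0.109 to 0.155 CPM, a floor that covers counting error only. *Bdh2*, the targeted gene, was counted 203, 193 and 209 times in WT and 164, 136 and 129 times in knockout libraries, or 57.7% of the WT level (log2 fold change -0.79, adjusted p = 0.000246 by the quasi-likelihood test of edgeR after Benjamini-Hochberg adjustment). The pluripotency markers *Pou5f1* (1389 to 1676 CPM), *Sox2* (356.2 to 427 CPM) and *Nanog* (312.3 to 349.4 CPM) were high in all 6 libraries. Transcripts of 13 adult hepatocyte genes summed to 70.88 to 556.7 CPM in WT and 48.16 to 174.2 CPM in knockout libraries, with WT replicates 1 and 2 and knockout replicate 2 standing above the others. Each result on a member is therefore also given without WT replicates 1 and 2 where that moves its call.

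Of the 10 members, 8 passed the filter on low counts, and 5 of these had an adjusted p under 0.05 in edgeR's quasi-likelihood test. In knockout libraries 3 rose and 2 fell. Among those that rose, *Lhx1* passed the filter only through its knockout libraries, so its place in these counts depends on its direction. Over all 16758 genes tested, 41.7% were called, 21% as higher and 20.8% as lower, and the members' 5 of 8 is given beside this background with nothing read from the difference. With library totals in place of TMM, the called genes of the whole table split into 2731 higher and 4451 lower, against 3518 and 3478 with TMM, and the directions of the tested members were the same under both. Values of the genotypes did not overlap for 4 of the 8 tested members (*Eomes*, *Evx1*, *Lhx1* and *Hand1*), and for 52.4% of all tested genes. In bulk RNA a change in the share of cells that express a gene cannot be told apart from a change in RNA per cell.

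**Figure D1:**
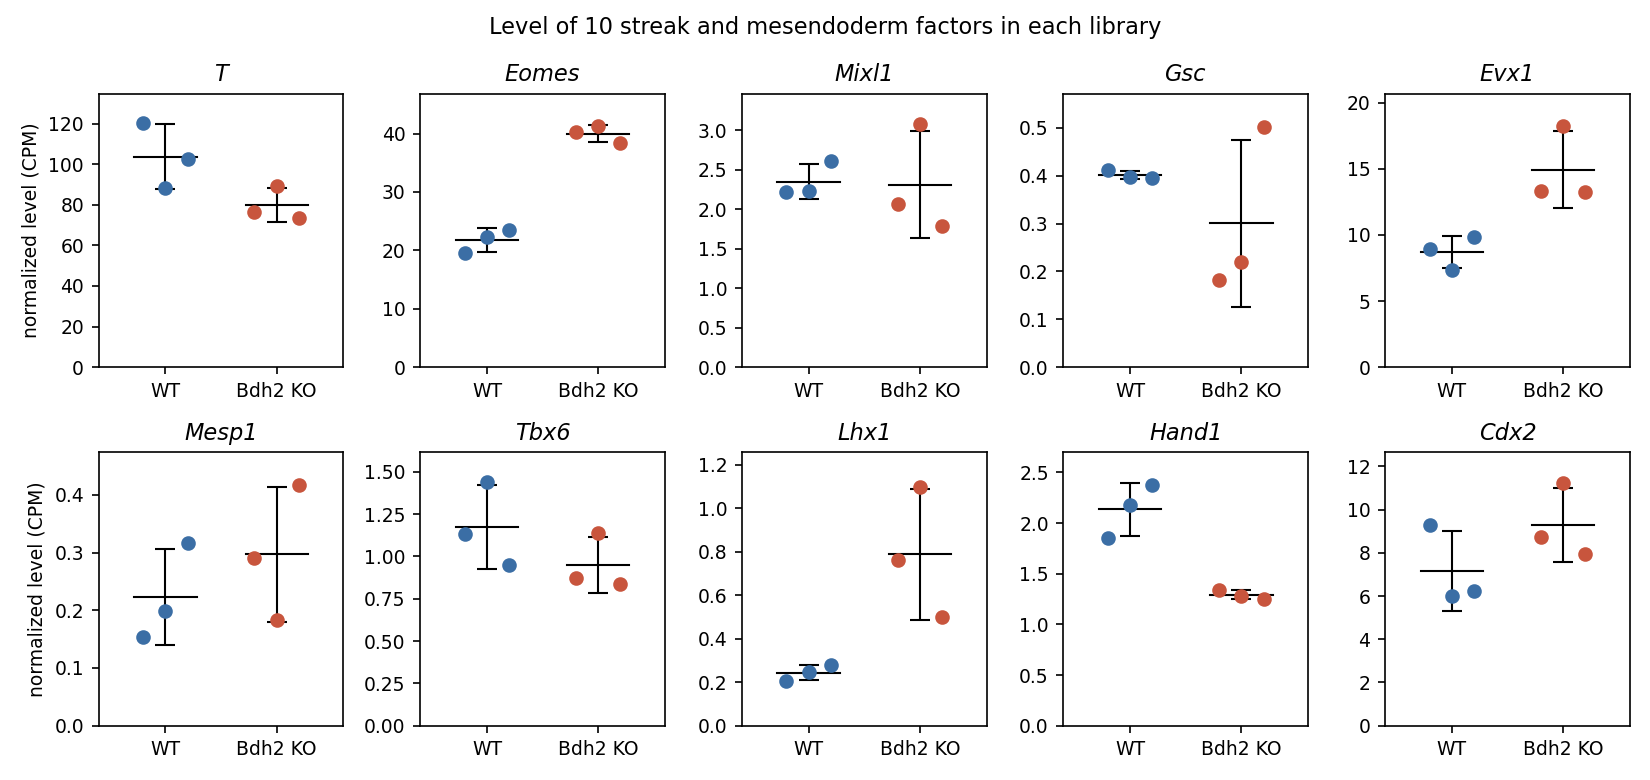
Level in CPM (vertical axes, linear and from 0, scaled per gene) of the 10 factors in WT (blue) and *Bdh2*-knockout (red) ASCs. Each point is 1 library, and the horizontal line and bar give the mean ± SD of 3 libraries. *Eomes*, *Evx1* and *Lhx1* lie higher in all knockout libraries, *Hand1* lies lower in all of them, and *T* overlaps between 88.33 CPM (WT) and 89.22 CPM (knockout).

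*T*, or Brachyury, the T-box factor that nascent mesoderm and notochord require, lies on chromosome 17 of GRCm38 from 8434423 to 8442496 (plus strand, ENSMUSG00000062327). It was measured at 120.1, 88.33 and 102.5 CPM in WT replicates 1 to 3, and at 76.51, 89.22 and 73.36 CPM in the knockout replicates. Knockout libraries were lower on average, but knockout replicate 2 lay just above WT replicate 2. The mean fell from 103.6 ± 15.9 to 79.7 ± 8.40 CPM (SD, n = 3 each), or to 76.9% of WT. The log2 fold change was -0.38 (standard error 0.10, 95% interval -0.59 to -0.17, edgeR adjusted p = 0.00726). This call did not hold in every setting: the adjusted p was 0.0590 with DESeq2, 0.184 when a change beyond 1.2-fold was asked for, 0.0526 with the hepatocyte transcripts as a covariate and 0.0502 without knockout replicate 3. Without WT replicates 1 and 2 the log2 fold change was -0.36 (adjusted p = 0.0105).

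*Eomes* (ENSMUSG00000032446, chromosome 9, 118478212 to 118486132, plus strand), the T-box factor that specifies definitive endoderm and cardiac mesoderm, moved the other way. Its levels were 19.47, 22.29 and 23.43 CPM in WT and 40.36, 41.29 and 38.35 CPM in knockout libraries. Every knockout library lay above every WT library, with a gap several times wider than the spread within either genotype. The mean rose 1.84-fold, from 21.7 ± 2.04 to 40.0 ± 1.50 CPM (SD, n = 3 each). The log2 fold change was 0.88 (standard error 0.07, 95% interval 0.73 to 1.03, edgeR adjusted p = 1.23e-06), and it was called in each of the 16 other settings at 0.77 to 0.94. Of its exon bases, 2.8% are shared with the antisense gene *Gm33460*, which was counted 9 to 16 times per library against 378 to 1126 for *Eomes*.

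*Tbx6* (ENSMUSG00000030699, chromosome 7, 126781483 to 126785560, plus strand), which directs paraxial mesoderm, was low in both genotypes. Its levels were 1.133, 1.437 and 0.9499 CPM in WT and 0.8711, 1.137 and 0.8346 CPM in knockout libraries. The ranges overlapped. The log2 fold change of -0.29 had a 95% interval from -0.90 to 0.31 (edgeR adjusted p = 0.420) at 20 to 31 counts per library. A change of either sign within that interval remained possible. The value was -0.13 without WT replicate 2, -0.43 without WT replicate 3 and -0.44 without knockout replicate 2. It was near 0 without WT replicates 1 and 2 (-0.0018) and with the hepatocyte transcripts as a covariate (-0.02).

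*Evx1* (ENSMUSG00000005503, chromosome 6, 52313498 to 52318378, plus strand), a homeobox gene of the posterior streak, was measured at 8.912, 7.381 and 9.815 CPM in WT and at 13.28, 18.26 and 13.27 CPM in knockout libraries. All knockout libraries were higher, and knockout replicate 2 stood above the other knockout libraries. The mean rose 1.72-fold, from 8.70 ± 1.23 to 14.9 ± 2.88 CPM (SD, n = 3 each). Its log2 fold change was 0.77 (standard error 0.14, 95% interval 0.48 to 1.07, edgeR adjusted p = 0.000608), and it was called in each of the 16 other settings at 0.61 to 0.88. The antisense gene *Evx1os* shares 2.5% of the exon bases of *Evx1*. It was counted 42, 64 and 46 times in WT and 69, 77 and 78 times in knockout libraries (log2 fold change 0.27, standard error 0.22, edgeR adjusted p = 0.349). Since the library kit does not mark strand, reads of the shared bases cannot be assigned to either gene.

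*Cdx2* (ENSMUSG00000029646, chromosome 5, 147300805 to 147307270, minus strand), which patterns the posterior body and specifies trophectoderm, was measured at 9.272, 5.994 and 6.214 CPM in WT and at 8.711, 11.22 and 7.929 CPM in knockout libraries. WT replicate 1 lay above 2 of the 3 knockout libraries. The means were 7.16 ± 1.83 and 9.29 ± 1.72 CPM (SD, n = 3 each), and the log2 fold change of 0.39 (standard error 0.17, 95% interval 0.02 to 0.75) did not pass the adjustment (edgeR adjusted p = 0.0812). The value moved with single libraries in both directions. It was lowest without knockout replicate 2, at 0.23 (adjusted p = 0.330), and was 0.28 without WT replicate 2 and 0.29 without WT replicate 3 (adjusted p = 0.262 and 0.224). Without WT replicate 1, which also held the most hepatocyte transcripts, it was 0.61 (adjusted p = 0.00946), without WT replicates 1 and 2 it was 0.58 (adjusted p = 0.0397), and with the hepatocyte transcripts as a covariate it was 0.68 (adjusted p = 0.00302). The part of these transcripts in the value of *Cdx2* was not tested further. With all 6 libraries and no filter on low counts *Cdx2* was called at 0.40 (adjusted p = 0.00588), and it was not called in 12 of the 16 other settings.

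*Lhx1* (ENSMUSG00000018698, chromosome 11, 84518284 to 84525535, minus strand), a LIM homeobox gene of the anterior streak and head organizer, had the largest log2 fold change of the 8 tested members and the lowest WT level. It was counted 4, 5 and 7 times in WT and 21, 30 and 12 times in knockout libraries, or 0.2061, 0.2477 and 0.277 against 0.7622, 1.1 and 0.5008 CPM. All knockout libraries were higher, and they differed among themselves, with knockout replicate 3 lowest and knockout replicate 2 highest. *Lhx1* passed the filter on low counts only through these libraries, and a gene as low in both genotypes would not have been tested. The mean rose 3.23-fold, from 0.244 ± 0.0357 to 0.788 ± 0.301 CPM (SD, n = 3 each), and the fitted change was 1.67 on the log2 scale (standard error 0.42, 95% interval 0.78 to 2.60, edgeR adjusted p = 0.00613). The call was lost without WT replicates 1 and 2 (log2 fold change 1.50, adjusted p = 0.118).

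*Mixl1* (ENSMUSG00000026497, chromosome 1, 180693043 to 180697034, minus strand), a paired-like homeobox gene of the nascent mesendoderm, was measured at 2.215, 2.229 and 2.612 CPM in WT and at 2.069, 3.081 and 1.794 CPM in knockout libraries. The knockout values surrounded the WT values. The means were 2.35 ± 0.225 and 2.31 ± 0.677 CPM (SD, n = 3 each), and the log2 fold change of -0.02 had a 95% interval from -0.51 to 0.46 (edgeR adjusted p = 0.942). *Gsc* (ENSMUSG00000021095, chromosome 12, 104471209 to 104473330, minus strand), the goosecoid gene of the anterior streak, was counted 8, 8 and 10 times in WT and 5, 6 and 12 times in knockout libraries. It was not tested after the filter, and in the unfiltered fit the change was -0.42 on the log2 scale (95% interval -1.45 to 0.59, adjusted p = 0.603). It ranged from -0.16 without knockout replicate 1 to -0.97 without knockout replicate 3, the libraries with 5 and 12 counts, and was called in none of these fits.

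*Hand1* (ENSMUSG00000037335, chromosome 11, 57828705 to 57832818, minus strand), a basic helix-loop-helix gene of lateral and extraembryonic mesoderm and of trophoblast giant cells, was measured at 1.854, 2.18 and 2.375 CPM in WT and at 1.343, 1.284 and 1.252 CPM in knockout libraries. All knockout libraries were lower, and they lay close together. The mean fell from 2.14 ± 0.263 to 1.29 ± 0.0462 CPM (SD, n = 3 each), or to 60.5% of WT, and the fitted log2 fold change was -0.73 (standard error 0.21, 95% interval -1.19 to -0.27, edgeR adjusted p = 0.0143). The adjusted p was 0.0709 with DESeq2, 0.0666 for a change beyond 1.2-fold and 0.0502 without WT replicate 3. *Mesp1* (ENSMUSG00000030544, chromosome 7, 79792241 to 79793788, minus strand), which marks the first cardiac mesoderm, was counted 3, 4 and 8 times in WT and 8, 5 and 10 times in knockout libraries. Its groups overlapped, it was not tested after the filter, and in the unfiltered fit the change was 0.37 on the log2 scale (95% interval -0.80 to 1.55, adjusted p = 0.701). *Mesp1* passed the filter in the fit without WT replicates 1 and 2, where the direction turned and the log2 fold change was -0.11 (standard error 0.76, edgeR adjusted p = 0.935), so these counts give no direction.

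Without WT replicates 1 and 2, the libraries highest in hepatocyte transcripts, the log2 fold change was 0.77 for *Eomes* (edgeR adjusted p = 5.34e-05), 0.61 for *Evx1* (adjusted p = 0.0233) and -0.88 for *Hand1* (adjusted p = 0.0476). The lone WT library is then assumed to vary like the knockout libraries. These 3 members kept their calls and *T* did too, whereas *Lhx1* lost its call and *Cdx2* gained one.

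**Figure D2:**
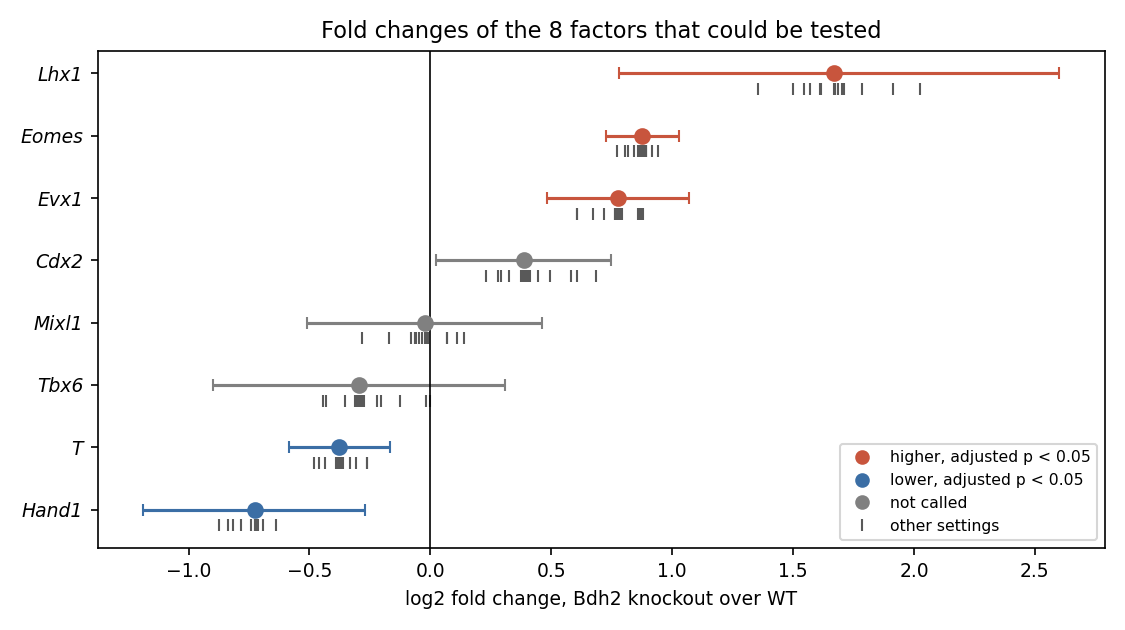
Log2 fold change of *Bdh2*-knockout over WT ASCs (horizontal axis) for the 8 tested factors. Points and bars give the edgeR estimate and its 95% interval, coloured by the call at an adjusted p under 0.05, and the short ticks under each give the other settings. The ticks of *Eomes* (0.77 to 0.94) and *Evx1* (0.61 to 0.88) stay to the right of 0, and those of *Mixl1* (-0.28 to 0.14) lie on both sides.

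Levels were compared between members per kilobase of the listed gene length. In WT ASCs *T* stood at 44.8 CPM per kb, followed by *Eomes* at 5.23, *Cdx2* at 3.17, *Evx1* at 3.03, *Hand1* at 1.07, *Mixl1* at 1.03, *Tbx6* at 0.650, *Gsc* at 0.317, *Mesp1* at 0.175 and *Lhx1* at 0.0598. The libraries of *Cdx2* and *Evx1* overlapped, as did those of *Hand1* and *Mixl1*, and the other neighbours in this order did not. In *Bdh2*-knockout ASCs *T* was again first at 34.4 CPM per kb and *Eomes* second at 9.63. *Evx1* at 5.19 and *Cdx2* at 4.11 followed and overlapped, then came *Mixl1* at 1.01, *Hand1* at 0.647 and *Tbx6* at 0.525, of which the last pair overlapped. *Gsc* at 0.237, *Mesp1* at 0.233 and *Lhx1* at 0.193 overlapped each with the next, so that *Lhx1* was set apart from *Mesp1* in WT and not in knockout libraries.

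Summed over the 10 members, the level was 130.7 to 163.7 CPM in WT and 138.2 to 167 CPM in knockout libraries, and these ranges overlapped. The make-up of the sum differed. *T* supplied 69.9% ± 3.03 of the members' counts in WT and 53.2% ± 0.229 in knockout libraries (SD, n = 3 each). *Eomes* supplied 14.9% ± 2.68 and 26.8% ± 1.81, and *Evx1* 5.90% ± 0.614 and 9.91% ± 0.908. For these 3 genes the ranges of the genotypes did not overlap, nor did those of *Cdx2*, *Hand1* and *Lhx1*. The shares of *Mixl1*, *Gsc*, *Mesp1* and *Tbx6* overlapped. In CPM, 52.4% of all tested genes did not overlap. The shares are tied together, since a lower share of *T* raises those of the other members.

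Ratios of a member to *T* within a library are free of any scaling between libraries, and 7 were formed from counts per base. *Eomes* over *T* was 0.09035, 0.1406 and 0.1274 in WT and 0.2939, 0.2579 and 0.2913 in knockout libraries, a 2.39-fold higher ratio. *Evx1* over *T* was 0.0680 ± 0.00871 in WT and 0.150 ± 0.0131 in knockout libraries (SD, n = 3 each), or 2.21-fold higher. *Cdx2* over *T*, which is the ratio of 2 genes whose own levels overlapped, ran from 0.06209 to 0.07906 in WT and from 0.1107 to 0.1288 in knockout libraries. *Lhx1* over *T* was 4.01-fold higher. None of these 4 ratios overlapped between genotypes. Each had p = 0.1 in a two-sided exact permutation test, the smallest that 3 against 3 libraries allow, or 0.175 adjusted over the 7 ratios. All 7 ratios have *T* as denominator, which was itself lower on average in knockout libraries. A member that did not change would then show a higher ratio. In CPM, 52.4% of all tested genes did not overlap, and the matching share for ratios to *T* was not computed. The ratios of *Mixl1*, *Tbx6* and *Hand1* to *T* overlapped (exact permutation p = 0.3, 1 and 0.3).

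**Figure D3:**
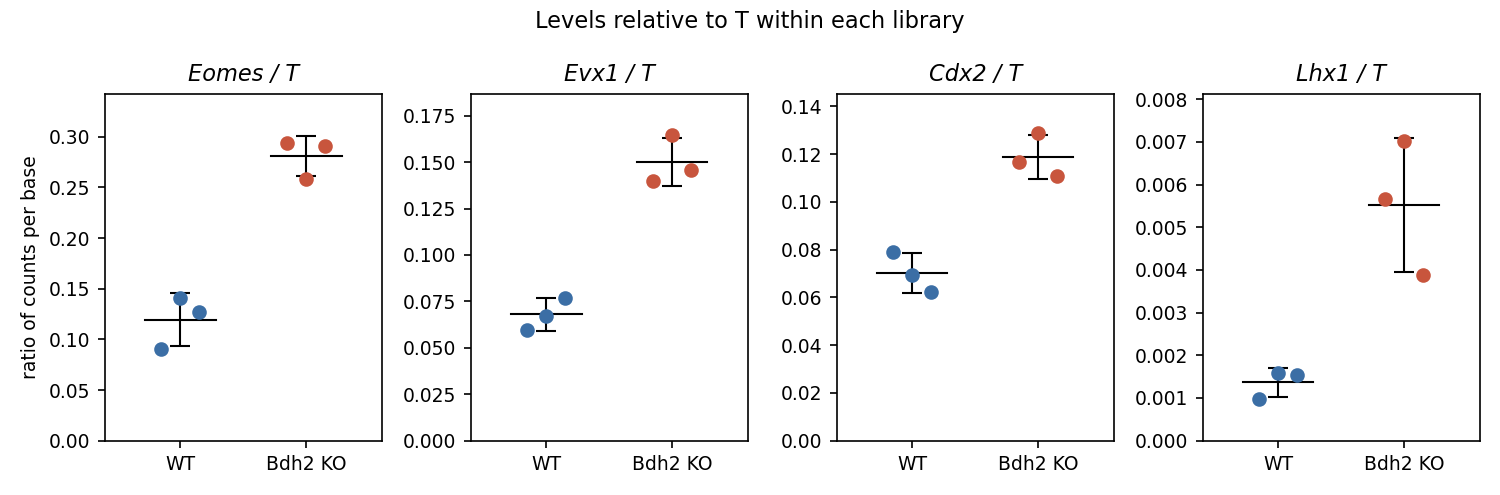
Ratio of counts per base of *Eomes*, *Evx1*, *Cdx2* and *Lhx1* to those of *T* within each library (vertical axes, linear and from 0), for WT (blue) and *Bdh2*-knockout (red) ASCs. Points are libraries, and lines and bars give the mean ± SD of 3 libraries. In each panel the knockout libraries lie above all WT libraries, as for *Eomes* over *T* with 0.2579 to 0.2939 against 0.09035 to 0.1406. *T*, the shared denominator, was itself lower on average in knockout libraries.

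The signals that induce the streak, and their receptors, were read from a list of 23 genes, of which 20 were tested, 9 were higher, 4 lower and 7 not called. The list median was -0.02 on the log2 scale, and that of all tested genes -0.01. Over the settings the list median ran from -0.08 to 0.01. *Nodal*, the ligand that induces *Eomes* and *Gsc*, rose from 37.2 ± 3.10 to 66.5 ± 0.641 CPM (log2 fold change 0.83, adjusted p = 5.34e-07). *Wnt3*, the ligand needed to form the streak, rose from 3.50 ± 0.188 to 7.42 ± 0.301 CPM (log2 fold change 1.08, adjusted p = 2.33e-05). *Acvr1b*, which encodes the type I receptor ALK4 for activin and Nodal, fell to 57.4 ± 5.46 from 78.1 ± 2.02 CPM, and the Wnt co-receptor gene *Lrp5* fell to 72.7 ± 0.115 from 85.4 ± 2.06 CPM.

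Of 14 genes for intracellular effectors of Nodal, BMP and Wnt, 9 were higher, 0 lower and 5 not called, with a median of 0.19. *Tcf7l1*, a repressor among the TCF factors, rose from 26.6 ± 3.21 to 58.5 ± 3.56 CPM, and the coactivator gene *Crebbp* from 43.9 ± 1.68 to 74.0 ± 2.43 CPM. Among 18 tested inhibitors and feedback targets, 9 were higher, 3 lower and 6 not called, with a median of 0.23. The activin antagonist gene *Fst* rose from 17.7 ± 1.07 to 40.6 ± 3.64 CPM and the BMP target *Id1* from 80.8 ± 3.44 to 135 ± 4.63 CPM. *Lefty2*, which encodes an inhibitor of Nodal, fell from 137 ± 6.97 to 51.0 ± 3.29 CPM (log2 fold change -1.42, adjusted p = 7.78e-09), whereas *Lefty1*, named here after its values were seen, rose from 16.7 ± 3.14 to 30.6 ± 1.56 CPM. The Wnt feedback gene *Nkd1* fell from 9.10 ± 0.888 to 5.02 ± 0.641 CPM. *Cer1* was counted 0 times in all 6 libraries.

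Genes of the steps that follow the members in the embryo were read next. Of 13 tested genes for epithelial-mesenchymal transition and migration, 3 were higher, 1 lower and 9 not called (median 0.14). The protease gene *Mmp14* rose by 0.40 and the N-cadherin gene *Cdh2* by 0.38 on the log2 scale, and *Fn1*, for fibronectin, fell by 0.35. Of 19 tested genes of later mesoderm, 7 were higher, 1 lower and 11 not called (median 0.14). *Tcf15*, a helix-loop-helix gene of paraxial mesoderm, rose by 0.54 and the co-regulator gene *Cited2* by 0.49 on the log2 scale. *Foxc2*, a forkhead gene of paraxial mesoderm, was counted 14, 13 and 19 times in WT and 4, 4 and 0 times in knockout libraries (adjusted p = 0.00148).

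Of 11 tested genes of anterior streak, axial mesoderm and definitive endoderm, 7 were higher, 1 lower and 3 not called (median 0.46). The endoderm factor gene *Sox17* rose from 1.28 ± 0.210 to 10.3 ± 1.36 CPM and the epiblast growth factor gene *Fgf5* from 0.439 ± 0.241 to 4.05 ± 0.155 CPM, while *Trh*, for thyrotropin-releasing hormone, fell from 1693 ± 133 to 670 ± 64.3 CPM. *Sox17* and *Foxa2* of this list are also in the list of primitive endoderm markers below. Of 14 tested posterior and neuromesodermal genes, 5 were higher, 2 lower and 7 not called (median 0.12). Over the settings this median ran from -0.0026 to 0.23. The zinc-finger gene *Sall4* rose by 0.66 and the ligand gene *Wnt11* by 1.05 on the log2 scale, and the homeobox gene *Nkx1-2* fell by 0.41. *Noto* and *Nkx2-1* were counted 0 times in all libraries.

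Among the relatives of the members, 11 of 17 T-box genes were tested, and 3 were higher, 2 lower and 6 not called (median 0.35). Beside *Eomes*, *Tbx3*, which is also a factor of the pluripotency network, rose from 89.5 ± 4.67 to 140 ± 11.9 CPM, and *Tbx20*, a cardiac gene, from 2.08 ± 0.165 to 3.50 ± 0.475 CPM. Beside *T*, *Tbx2* fell from 0.952 ± 0.209 to 0.393 ± 0.0374 CPM. Of 21 homeodomain and helix-loop-helix relatives 14 were tested, and those called were *Evx1*, *Lhx1* and *Otx2* as higher and *Hand1* as lower. *Otx2*, an anterior homeobox gene, rose from 14.6 ± 1.94 to 21.6 ± 1.22 CPM.

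**Figure D4:**
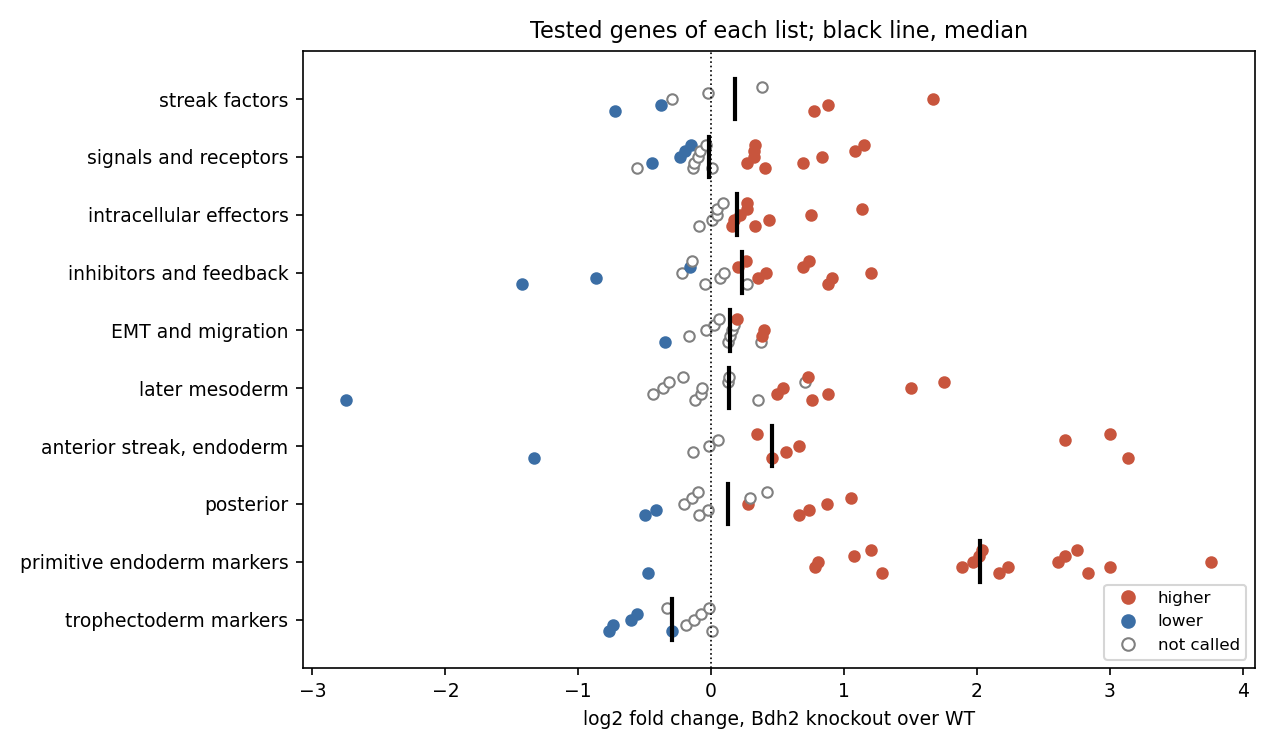
Log2 fold change of *Bdh2*-knockout over WT ASCs (horizontal axis) of every tested gene in each list, with genes called at an adjusted p under 0.05 filled (red, higher; blue, lower) and the list median as a black line. The primitive endoderm markers stand to the right with a median of 2.03, against 0.18 for the streak factors and -0.01 for all tested genes. Over the settings the median of the streak factors ran from -0.03 to 0.40, and that of the primitive endoderm markers from 1.97 to 2.18.

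Markers of other cell types moved between the genotypes as well. Of 18 primitive endoderm markers 17 were higher and 1 lower (*Hnf4a*), and the median was 2.03 on the log2 scale. The summed level was 380.1 to 420.9 CPM in WT and 923.1 to 1018 CPM in knockout libraries, none was at 0, and the lone fall, of *Hnf4a*, was not called with DESeq2, against a 1.2-fold change, with the hepatocyte covariate, without WT replicates 1 and 2, or in 5 of the 6 fits that left out 1 library. *Col4a1* rose from 40.3 ± 3.03 to 181 ± 12.0 CPM. *Eomes* and *Lhx1*, which visceral endoderm also uses, rose in the same libraries, and the part of these cells in their levels was not tested. Of 15 trophectoderm markers 11 were tested, 0 were higher and 5 lower (median -0.30), among them *Tead4* and *Tfap2c*. With DESeq2, a test against a 1.2-fold change and 5 of the 6 fits that left out 1 library, 3 were lower. Their sum was 202.3 to 229 CPM in WT and 174 to 180.1 CPM in knockout libraries, with *Prl3d1* at 0 counts in all libraries and *Elf5* at 3 counts or fewer in each. *Hand1* fell with this list and *Eomes*, which trophoblast also uses, rose, and the part of such cells was not tested.

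Of 10 pluripotency markers 7 were higher, 0 lower and 3 (*Sox2*, *Nanog* and *Zfp42*) not called, with a median of 0.18 on the log2 scale. Their sum was 4466 to 4811 CPM in WT and 5048 to 5157 CPM in knockout libraries, and *Tbx3* is in this list and in that of T-box genes. The count of higher markers depended on the setting: it was 4 with library totals, 1 against a 1.2-fold change, 2 with the hepatocyte covariate and 3 without WT replicates 1 and 2. In each of these except the 1.2-fold test 1 marker was lower, as it was at a mean count of at least 50 and without WT replicate 2. Of 8 primordial germ cell markers 2 were higher (*Prdm14* and *Ddx4*), 1 lower (*Kit*) and 5 not called (median 0.07), with sums of 135.4 to 140.7 CPM in WT and 121.5 to 130.2 CPM in knockout libraries. Of 8 fibroblast markers 6 were tested, 0 were higher and 1, *Col1a1*, was lower (median -0.28), with sums of 29.62 to 38.59 CPM in WT and 27.37 to 33.34 CPM in knockout libraries. Over the settings the median ran from -0.0049 to 0.15 for the germ cell markers and from -0.34 to 0.07 for the fibroblast markers. *Lum*, a defining marker of fibroblasts, was counted 0 times in all knockout libraries and at most 3 times in a WT library. Of the 13 adult hepatocyte genes 10 were lower and 3 not called, and 0 were lower with DESeq2, with limma-voom, with the hepatocyte covariate, without WT replicate 1, without knockout replicate 3 or without WT replicates 1 and 2. The count was 2 against a 1.2-fold change and without WT replicate 2, and 1 without knockout replicate 1. The part of these cells and states in the levels of the members was not tested.

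Genes whose pattern over the 6 libraries was most like that of a member were named by Pearson's r of log2 CPM over 16757 other tested genes. The points share genotype in groups of 3, and r is given as a description. For *T* they were *Lhfpl2* (r = 0.991), *Snora57* (r = 0.99) and *Ssna1* (r = 0.988), and for *Eomes* they were *Grik3*, *Map1a* and *Cstf2* (r = 0.999 each). *Eomes* had 1377 genes above an r of 0.95, *Evx1* 608, *Hand1* 541 and *Lhx1* 353, whereas *T* had 55, *Cdx2* 28, *Tbx6* 14 and *Mixl1* 6. The nearest genes were *Rdh10* for *Evx1* (r = 0.997), *Fmn2* for *Lhx1* (r = 0.998), *Zfp217* for *Hand1* (r = 0.999), *Stx3* for *Cdx2* (r = 0.994), *Mindy4* for *Mixl1* (r = 0.967) and *5430403G16Rik* for *Tbx6* (r = 0.992).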

How the data were processed

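RNA of 3 WT and 3 *Bdh2*-knockout ASC libraries was prepared with a TruSeq kit that does not mark strand. After trimming of adaptors and low-quality reads, the authors aligned to GRCm38 with HISAT2 2.0.5, assigned reads to genes with FeatureCounts and deposited raw counts for 54715 genes. The annotation release and the treatment of reads with several matches are not given in the sources used here. GENCODE M21 holds 99.6% of the identifiers, and all 10 members have the same start and end there.

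Counts were tested in R 4.3.3 with edgeR 4.0.16 (TMM, filterByExpr, glmQLFit, glmQLFTest, and a model of genotype alone), with Benjamini-Hochberg adjustment over 16758 genes and a threshold of 0.05. The authors used DESeq2 for their own comparison, and DESeq2 1.42.0 was an alternative here, beside limma 3.58.1 (voom, 0.5 counts added), median-of-ratios factors, library totals, no filter, a minimum mean count of 50, a block for the replicate number, a test against a 1.2-fold change, a hepatocyte covariate (the mean log2 level of 13 liver genes) and each library left out. A fit without the 2 WT libraries highest in such transcripts was chosen after seeing the data. Ratios within a library were compared by a two-sided exact permutation test.

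The members and the gene lists were chosen with earlier results of these data known. The text names the 10 members, *Bdh2*, up to 2 higher and 2 lower genes with the smallest adjusted p of each list, genes at 0, and the genes most like a member. The values of 1 gene that this rule names are not reported here. Promoter sequences are from RefSeq (GRCm38.p6), which held 8 of the 10 members, and primers from the study's supplement. Scripts were tested on simulated data. Figures and tables used matplotlib 3.10.9, pandas 2.3.3 and Python 3.11.15. Libraries of one genotype differed by more than sampling noise (chi-square per gene 4.13 to 9.77), and each was counted once. That difference does not show that they came from separate cultures.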

Additional observations from a re-analysis of the deposited data

How the results depend on the processing

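*Eomes* and *Evx1* were called as higher in each of 16 other settings and *Lhx1* in 14 of the 15 that could test it. The members called fell from 5 to 3 with DESeq2, with a mean count of at least 50 (where *Lhx1*, *Hand1* and *Tbx6* were not tested) and against a 1.2-fold change. Those called as lower fell from 2 to 0 with DESeq2 and against a 1.2-fold change, and to 1 with a mean count of at least 50 and with the hepatocyte covariate. They ranged from 1 to 2 when 1 library was left out, and the libraries that ended a call were knockout replicate 3 for *T* and WT replicate 3 for *Hand1*. The log2 fold change of *Mixl1* turned to 0.11 with the hepatocyte covariate and ranged from -0.28 to 0.14 with 1 library left out, and it was not called in any of these. The causes were not tested. Of all genes, 2457 were called against a 1.2-fold change (1185 higher, 1272 lower) in place of 6996 (3518 and 3478), and 4386 without WT replicates 1 and 2 (2026 lower), where fewer libraries entered. With the replicate block 6452 genes were called (3235 higher, 3217 lower), and the call of each tested member was the same (*T* -0.37, *Lhx1* 1.62, *Hand1* -0.72), with 3 trophectoderm markers lower in place of 5. The titles do not say that the numbers pair the libraries. Deviations of same-numbered libraries correlated at -0.151, 0.116 and 0.263, and not every library correlated best with its own number. Hepatocyte transcripts also differed between libraries of a genotype, so these correlations cannot settle whether a pairing exists. Counts of listed genes also moved. Over all settings 4 to 9 signals and receptors were called as higher and 1 to 7 as lower (2 without WT replicate 2, knockout replicate 1 or knockout replicate 3), 3 to 9 effectors as higher, 1 to 5 migration genes as higher (5 without knockout replicate 3), 0 to 2 later mesoderm genes as lower (2 without WT replicate 1), 3 to 6 posterior genes as higher and 0 to 3 as lower (1 without WT replicate 1 or any 1 knockout library), 0 to 2 T-box genes as lower (1 without knockout replicate 3) and 0 to 2 homeodomain and helix-loop-helix relatives as lower (2 without WT replicate 2, 0 without WT replicate 3). *Gsc* and *Mesp1*, at 3 to 12 counts, and *Lhx1* in WT, at 4 to 7, are limited by depth. *Lhx1* passed the default filter only through its knockout libraries, so its calls under that filter depend on its direction.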
